A study of Homo sapiens with 24 samples.

Results

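The regions described here are 223 genomic regions at which both H3K4me3 and H3K27ac were higher after knockdown of ZNF436 than in control cells. They were chosen from 153244 regions counted in every library. A region was eligible when its mean H3K4me3 was at least 5 CPM and its mean H3K27ac at least 3 CPM over the 6 libraries of each mark, which held for 14069 regions. CPM is a region's read count scaled to a library total of 1000000 counts. An eligible region became a member when, in both marks, the lowest of the 3 knockdown libraries lay above the highest of the 3 control libraries. The measured values of these 12 libraries thus chose the members, and all H3K4me3 and H3K27ac values below are descriptions without a test.

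The cells came from H9, an established line of human embryonic stem cells, and were turned into ventricular-like cardiomyocytes with a differentiation kit and taken at day 15. Cells with ZNF436 knocked down and control cells were both made from H9, and 100000 cells went into each sample. How the knockdown was made, what the control cells received and whether replicates were separate cultures are not given in the sources used here, so the spread between libraries may be technical. For each of 4 histone marks there were 3 knockdown and 3 control libraries made by CUT&Tag, a method that tethers a transposase to antibody-bound nucleosomes and sequences the DNA it cuts out. A library held 11023905 to 13933927 counts in H3K4me3, 2955710 to 3681687 in H3K27ac, 3920283 to 4936265 in H3K4me1 and 2103185 to 2880412 in H3K9me3. A single count was therefore worth at most 0.0907 CPM in H3K4me3 and 0.338 CPM in H3K27ac, and small regions are measured more coarsely in the second mark.

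H3K4me3 is laid down by the SET1 and MLL methyltransferases around active transcription start sites, and H3K27ac by the acetyltransferases p300 and CBP at active promoters and enhancers. H3K4me1 marks enhancers and the shoulders of promoters. H3K9me3 marks silenced chromatin. ZNF436 encodes a zinc finger protein of the KRAB family, whose members typically bring the corepressor TRIM28 and the H3K9 methyltransferase SETDB1 to their DNA targets. Regions are named by position in hg19 (counted from 1), since no gene annotation or sequence of that build was used here, and for the same reason the labelled cell type was not checked against its marker genes. The level of ZNF436 itself is not measured by these libraries.

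Among the eligible regions, 223 (1.59%) were higher in knockdown cells in both marks and 141 (1.0%) were lower in both. Taken alone, H3K4me3 was higher without overlap of the groups at 8.46% of eligible regions and lower at 9.19%. H3K27ac was higher at 7.94% and lower at 6.67%. If labels and marks were unrelated, the 3 knockdown libraries would lie above the 3 control libraries in 1 of 20 orders for each mark, which gives 35.2 regions higher in both. Multiplying the observed shares of the marks instead gives 94.5 regions higher and 86.3 lower in both. Opposite movement was seen at 27 regions with higher H3K4me3 and lower H3K27ac (0.192%) and at 43 regions with lower H3K4me3 and higher H3K27ac (0.306%). In all, 364 regions moved the same way in both marks and 70 moved opposite ways. Both expectations treat the marks as independent, whereas H3K4me3 and H3K27ac were read from cells of the same kind and may share their cultures.

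**Figure D1:**
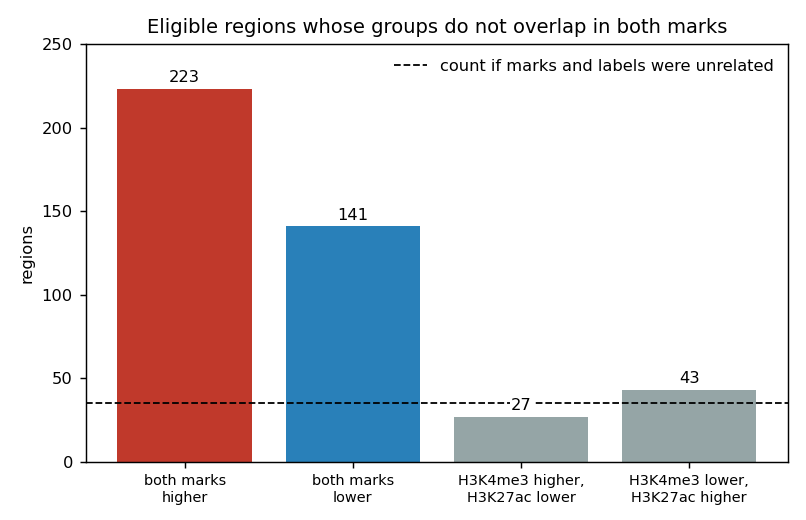
Number of eligible regions whose 3 knockdown and 3 control libraries do not overlap in both marks, by direction of each mark. The dashed line at 35.2 is the count if marks and labels were unrelated; 223 regions were higher and 141 lower in both marks, against 27 and 43 in opposite directions.

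The differences were mostly moderate. Averaged over the 223 members, H3K4me3 was 69.5, 66.9 and 70.3 CPM in knockdown libraries, against 52.0, 50.2 and 56.9 CPM in control libraries. For H3K27ac the averages were 47.3, 43.4 and 47.6 CPM in knockdown libraries, against 26.2, 23.1 and 31.5 CPM in control libraries. Control replicate 3 had the highest control average in both marks. Among the 13846 other eligible regions, the averages ran from 66.3 to 66.6 CPM in knockdown and from 66.7 to 67.0 CPM in control libraries for H3K4me3, and from 29.8 to 30.9 CPM in knockdown and from 27.04 to 30.9 CPM in control libraries for H3K27ac.

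The median fold, mean knockdown over mean control CPM, was 1.34 for H3K4me3 and 1.76 for H3K27ac over the members. Folds ran from 1.03 to 6.32 in H3K4me3 and from 1.15 to 7.97 in H3K27ac. H3K4me3 was at least doubled at 26 members and H3K27ac at 86, and both marks were at least doubled at 17. H3K27ac had the larger fold at 190 members and H3K4me3 at 33. This was not particular to members. At the other eligible regions the quartiles of log2 fold (0.1 CPM added) were -0.30 and 0.27 in H3K27ac, and -0.11 and 0.07 in H3K4me3. Regions lower in both marks had median folds of 0.56 in H3K27ac and 0.83 in H3K4me3 (0.1 CPM added). The median coefficient of variation within control libraries was 12.1% for H3K4me3 and 26.8% for H3K27ac at the members. Across the 223 members, Spearman's rho between the log2 folds of the marks was 0.45, as a description of regions that share libraries. The rule chose the members on both folds, and where counts are low it needs larger folds. It thus partly sets this value, which does not show that the marks changed together.

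**Figure D2:**
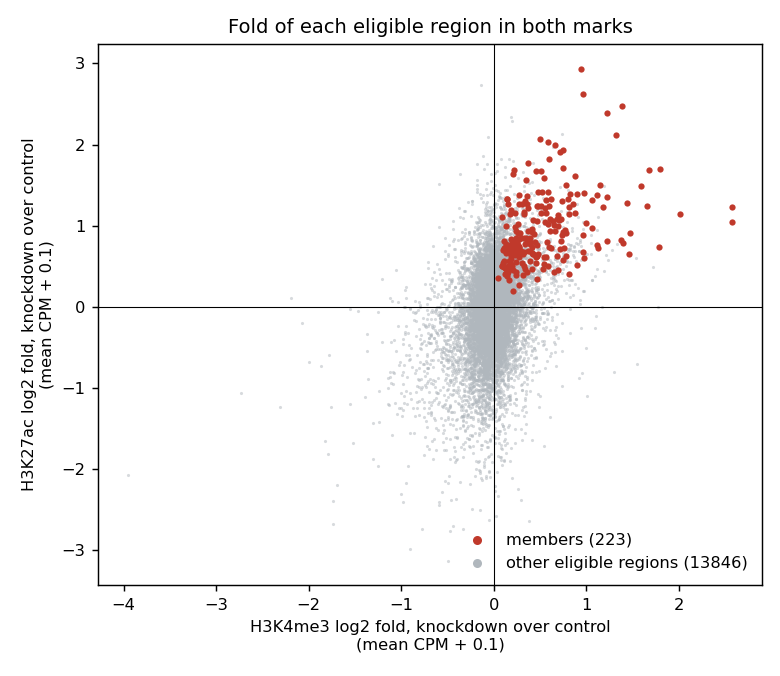
Log2 fold of H3K4me3 (horizontal) and H3K27ac (vertical), knockdown over control mean CPM with 0.1 CPM added, for 223 members (red) and 13846 other eligible regions (grey). Members lie in the upper right by the way they were chosen, most of them near a median fold of 1.34 in H3K4me3 and 1.76 in H3K27ac.

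For many members the gap between groups was narrow. The separation of a member, the smaller over both marks of the lowest knockdown over the highest control library (0.1 CPM added), had a median of 1.06. It was under 1.1 at 150 members, at least 1.2 at 37, at least 1.5 at 8 and at least 2 at 1. With exact 95% Poisson intervals on the counts of these libraries, the interval of the lowest knockdown library lay above that of the highest control library at 59 members in H3K4me3, at 30 in H3K27ac and at 13 in both. Such intervals cover counting error only, and libraries of a group varied by more than that. Chi-square per degree of freedom between them was 3.79 to 10.5 in these marks. The same libraries chose the members, so these counts are a description and no test of them.

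Members just inside and outside the thresholds differed little. On mean H3K4me3, chr16:57540897-57547975 was inside at 5.08 CPM, and chr9:139697361-139700392 was outside at 4.96 CPM. On mean H3K27ac, chr18:31801845-31805340 was inside at 3.04 CPM and chr3:75628232-75629805 outside at 2.84 CPM. The narrowest H3K4me3 gap inside was at chrX:15755526-15757573, with a lowest knockdown library of 43.3136 and a highest control library of 43.311 CPM. The narrowest H3K27ac gap inside was at chr19:36192814-36194418, with 6.52 and 6.51 CPM. Just outside, chr19:40909183-40910694 had 16.9631 CPM in its lowest knockdown and 16.9663 CPM in its highest control library of H3K4me3, and chr3:58291501-58293808 had 33.83 and 33.88 CPM in H3K27ac.

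Control replicate 3 lay closest to the knockdown libraries. It was the highest control library at 61.4% of members in H3K4me3 and at 57.4% in H3K27ac, against 31.1% and 29.7% of all eligible regions. It was highest in both marks at 85 members (38.1%), against 12.3% of the other eligible regions. Over the mean of control replicates 1 and 2, the median fold was 1.38 for H3K4me3 and 1.90 for H3K27ac, and over control replicate 3 alone it was 1.22 and 1.63. Leaving this library out gave 378 members when dropped from H3K4me3, 333 when dropped from H3K27ac and 689 when dropped from both, all of which include the 223. With fewer libraries the condition is easier to meet: 141 regions would meet it in the last case if labels and marks were unrelated, and 312 by the product of the shares. The regions lower in both marks then numbered 648.

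The widest separation was at chr6:127437365-127444343. H3K4me3 there was 178, 169 and 198 CPM in knockdown libraries, against 74.0, 80.1 and 79.2 CPM in control libraries. H3K27ac was 66.3, 72.1 and 86.9 CPM in knockdown libraries, against 10.04, 9.86 and 22.8 CPM in control libraries, a 5.28-fold difference. Every knockdown library was thus more than double the highest control library in both marks, which held at no other member. H3K4me1 in the same region was 34.1 ± 1.18 CPM in knockdown and 29.8 ± 2.32 CPM in control cells (SD, n = 3 each), and the groups did not overlap.

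The second widest was at chr19:7980530-7983265. Its H3K4me3 was 65.6, 69.6 and 62.3 CPM in knockdown libraries, against 26.7, 19.6 and 26.3 CPM in control libraries. The H3K27ac values were 21.99, 21.7 and 21.7 CPM in knockdown libraries, against 11.0, 10.8 and 4.88 CPM in control libraries. Knockdown libraries were close to each other here, and in H3K27ac control replicate 3 was the lowest library. Other members of chromosome 19 among the 10 widest were chr19:17437983-17440075, with folds of 2.18 in H3K4me3 and 2.62 in H3K27ac, and chr19:15562705-15564632, with folds of 1.64 and 3.82.

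At chr10:103598939-103604279 the larger difference was in H3K4me3. It was 51.3, 55.7 and 67.1 CPM in knockdown libraries, against 6.69, 7.32 and 14.9 CPM in control libraries, a 6.02-fold difference. H3K27ac was 22.6, 17.6 and 22.5 CPM in knockdown libraries, against 8.16, 10.5 and 7.81 CPM in control libraries. A similar pattern of little control H3K4me3 was seen at chr4:21544850-21546483, with 26.6, 21.3 and 19.7 CPM in knockdown libraries, against 3.09, 4.09 and 12.1 CPM in control libraries. Its H3K27ac was 28.3, 18.3 and 28.0 CPM in knockdown libraries, against 10.04, 7.23 and 5.53 CPM in control libraries. In H3K4me3 at both regions control replicate 3 stood above the other 2 control libraries.

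At chr11:13983637-13987587, H3K4me3 was 88.5, 73.4 and 83.1 CPM in knockdown libraries, against 29.5, 21.7 and 46.9 CPM in control libraries. H3K27ac was 25.3, 24.4 and 21.7 CPM in knockdown libraries, against 3.76, 7.23 and 5.205 CPM in control libraries. The groups were well apart in both marks, although the control libraries ranged more than 2-fold in H3K4me3. At chr5:80527984-80531291 H3K27ac was the stronger mark, with 86.8, 62.9 and 87.5 CPM in knockdown libraries, against 25.1, 30.9 and 36.4 CPM in control libraries. H3K4me3 there was 35.1, 27.7 and 23.6 CPM in knockdown libraries, against 8.61, 12.3 and 15.8 CPM in control libraries.

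Short members with little control H3K27ac had the highest folds of that mark. At chr8:12457691-12459460 it was 18.98, 19.3 and 13.04 CPM in knockdown libraries, against 2.51, 2.63 and 1.30 CPM in control libraries, where the 3 control libraries held 20 counts in all. At chr6:33047960-33049431 it was 8.43, 9.81 and 7.06 CPM in knockdown libraries, against 1.25, 1.31 and 1.30 CPM in control libraries, from 12 control counts. These 2 regions had the highest H3K27ac folds of all members, 7.97 and 6.54, beside H3K4me3 folds of 1.93 and 1.96. Their control means of H3K27ac, 2.15 and 1.29 CPM, were below the minimum of 3 CPM. Both were thus eligible only through their knockdown libraries, and the rule favours large folds at such regions. The short arm of chromosome 8 is known for large duplicated segments, and the sources used here do not say how reads that map to several places were treated.

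**Figure D3:**
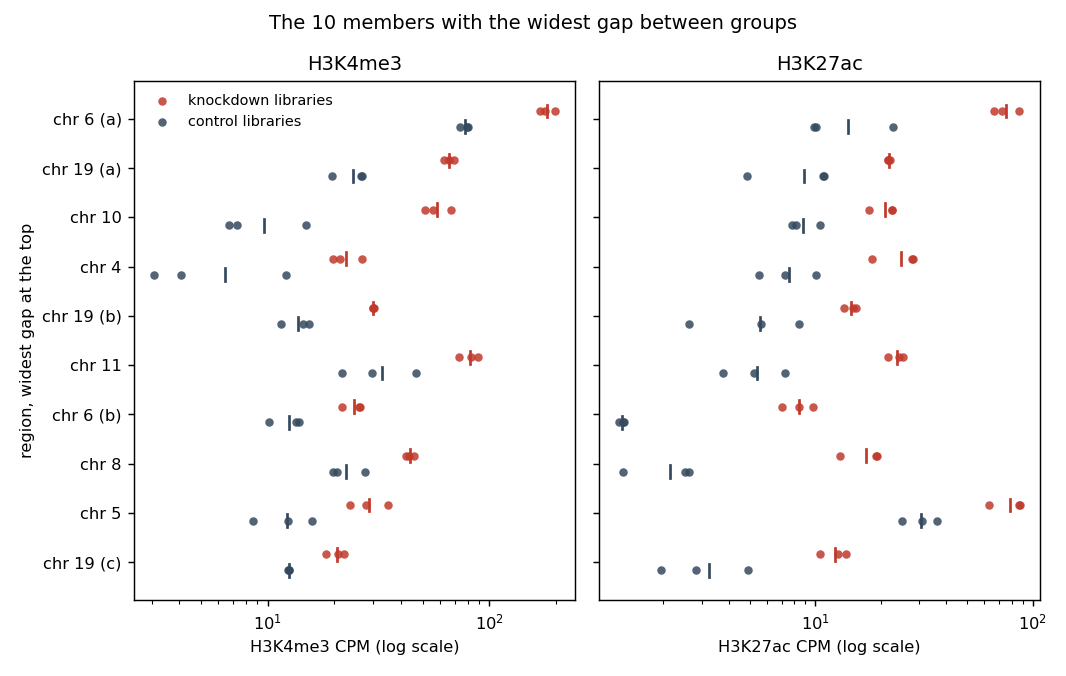
CPM of each library on a log axis for the 10 members with the widest separation, H3K4me3 on the left and H3K27ac on the right. Points are single libraries (knockdown above control within each row) and short lines are group means; the top row is chr6:127437365-127444343, and rows with the same chromosome are lettered from the top.

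Strongly marked members differed by less. The most H3K4me3 was at chr7:92459982-92467166, with 306, 293 and 295 CPM in knockdown libraries, against 236, 274 and 274 CPM in control libraries. At chr20:303793-311574, chr16:51181961-51190309 and chr10:5929890-5939793 the H3K4me3 folds were 1.103, 1.26 and 1.09. An exception was chr8:23559077-23569485, a region of 10409 bp with 287, 276 and 303 CPM in knockdown libraries, against 92.9, 163 and 208 CPM in control libraries. H3K27ac at this region was 194, 175 and 206 CPM in knockdown libraries, against 52.4, 52.9 and 113 CPM in control libraries, and the controls were widely spread in both marks. Across the members, Spearman's rho between fold and control level was -0.69 for H3K4me3 and -0.64 for H3K27ac; control values enter both quantities. The 17 members doubled in both marks had a median control H3K4me3 of 9.64 CPM, and the others 42.2 CPM. The rule used these same values, and where counts are low a larger fold is needed to separate the groups. The rule thus partly sets the link between level and fold.

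The label of promoters could not be checked independently, since the positions of genes were not used here and the rule itself asked for H3K4me3. As a description, 220 of the 223 members (98.7%) were in the top 20% of all regions for control H3K4me3 per kb, as were 99.8% of the eligible regions. The remaining 3 had little H3K4me3 and much H3K27ac. At chr18:56216374-56219317, H3K4me3 was 11.5, 6.85 and 8.99 CPM in knockdown libraries, against 1.504, 1.15 and 1.68 CPM in control libraries, the highest H3K4me3 fold of any member (6.32). At chr5:78988356-78994574 it was 10.3, 6.22 and 8.91 CPM in knockdown libraries, against 3.01, 1.08 and 3.10 CPM in control libraries. At chr16:57540897-57547975 it was 6.04 ± 0.509 CPM in knockdown and 4.13 ± 0.813 CPM in control cells (SD, n = 3 each). H3K27ac averaged 60.1, 137 and 159 CPM in the knockdown libraries of these 3 regions, against 29.1, 82.3 and 116 CPM in control libraries. Their control means of H3K4me3, 1.44, 2.39 and 4.13 CPM, were below the minimum of 5 CPM. They were thus eligible only through their knockdown libraries, as were 10 members in all. At such regions the rule favours large folds, so the fold of 6.32 is partly set by it.

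Members were wider than other eligible regions. Their median width was 3034 bp, against 2597 bp. Median H3K4me3 density at members was 19.1 CPM per kb in knockdown and 13.8 in control cells, and at the other eligible regions 21.6 in knockdown and 21.9 in control cells. Median H3K27ac density at members was 10.1 CPM per kb in knockdown and 5.33 in control cells, and at the other eligible regions 7.11 in knockdown and 7.22 in control cells. Members were thus less dense than other eligible regions in H3K4me3 in both groups, while in H3K27ac they were denser in knockdown and less dense in control cells; the rule chose them for this difference between the groups. With eligible regions split into 4 classes of equal size by width, members made up 1.08% of the narrowest class and 2.62% of the widest. Split likewise by mean H3K4me3, they made up 2.19% of the lowest class and 1.25% of the highest, and by mean H3K27ac 1.17% of the lowest and 2.25% of the highest. Regions lower in both marks likewise made up more of the widest class (1.51%) than of the narrowest (0.767%), and more of the lowest H3K4me3 class (1.34%) than of the highest (0.739%). By mean H3K27ac they made up 0.824% of the lowest class and 0.995% of the highest. Neither the width nor the H3K4me3 level of members is thus shown to be tied to their direction. The mean levels used for these classes include the knockdown libraries, which the rule asked to be high at members and low at lower regions. The rule thus partly sets the shares by H3K27ac level. In control libraries alone, median H3K27ac was 17.3 CPM at members and 18.5 CPM at the other eligible regions.

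Every autosome and chromosome X held members. Chromosome 19 held the most, 27 of 1043 eligible regions (2.59%), and 4 regions lower in both marks. Chromosomes 18, 20 and 5 had similar shares, with 6, 10 and 17 members (2.74%, 2.65% and 2.63%). The lowest shares were on chromosomes 14 (2 members, 0.44%) and 17 (5 members, 0.605%). These shares were not tested. On chromosome 19 the median folds were 1.45 in H3K4me3 and 1.75 in H3K27ac, and 2 of its members were doubled in both marks.

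**Figure D4:**
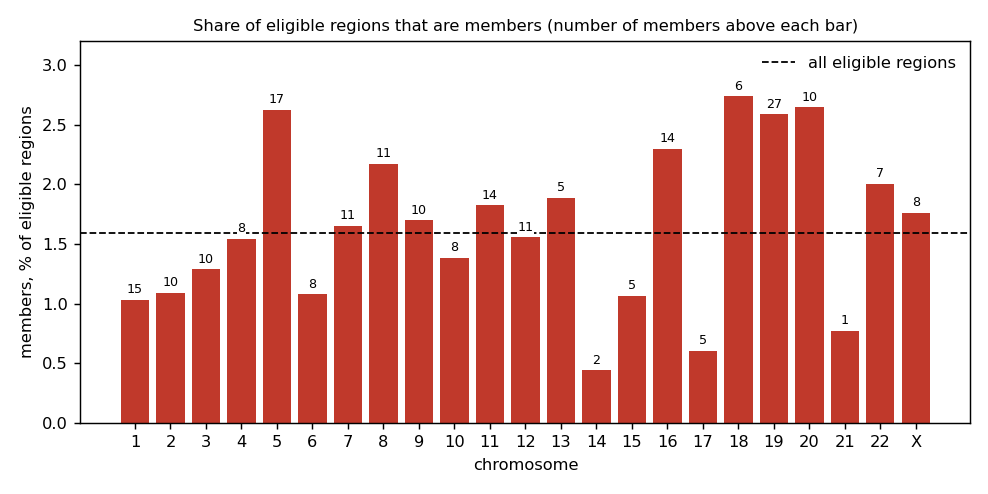
Members as a percentage of the eligible regions of each chromosome, with the number of members above each bar. The dashed line at 1.59% is the share over all eligible regions; chromosomes 5, 18, 19 and 20 were above 2.5% and chromosomes 14 and 17 below 0.7%.

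Few members were neighbours. Only 18 had another member within 100 kb, in 8 groups. A group on chromosome 16 (chr16:67183744-67218922) held 3 members among 6 eligible regions, with H3K27ac folds of 3.25, 2.24 and 2.21 and H3K4me3 folds of 1.16, 1.17 and 1.13. On chromosome 9 (chr9:139871603-140012737), 3 of 10 eligible regions were members, with H3K27ac folds of 2.13, 2.87 and 1.75 and H3K4me3 folds of 1.56, 1.72 and 1.49. In the chromosome 16 group the difference was thus mostly in H3K27ac, and in the chromosome 9 group it was present in both marks. A pair on chromosome 8 (chr8:7916699-7918487 and chr8:7922898-7924691) had H3K27ac of 10.04 ± 1.65 and 6.35 ± 1.37 CPM in knockdown cells, against 1.72 ± 1.36 and 2.83 ± 2.18 CPM in control cells (SD, n = 3 each). The 3 control libraries held 16 H3K27ac counts in all at chr8:7916699-7918487. Both control means of the pair were below the minimum of 3 CPM, so both regions were eligible only through their knockdown libraries. This pair is also on the short arm of chromosome 8, so the limit on reads that map to several places applies here too.

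Regions directly beside members were examined as well. Within 5 kb of a member lay 239 regions that were not eligible and had a mean H3K27ac of at least 1 CPM. H3K27ac was higher without overlap at 44 of them (18.4%) and lower at 5 (2.09%), against 6.22% higher and 7.44% lower among 9970 such regions beside other eligible regions. For H3K4me1, 31 of 230 regions beside members were higher (13.5%) and 3 lower (1.30%), against 7.52% and 6.56% of 9309. These counts have no test, and regions beside the same member are not independent. The H3K27ac counts also come from the libraries that chose the members. Signal that reaches past the edge of a member enters both, so they are not separate evidence.

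H3K4me1 and H3K9me3 were not used to choose the members. Each was tested over all regions with edgeR's quasi-likelihood test on its own 6 libraries, with Benjamini-Hochberg adjustment. In H3K4me1, 222 of the 223 members had enough counts for the test and 0 passed an adjusted p of 0.05 in either direction. The background is also 0% of 85815 regions tested, of which 9032 had an unadjusted p under 0.05. DESeq2 called 69 higher and 25 lower regions, with 0 members among them. The edgeR count depended on the control libraries: without control replicate 3 of H3K4me1 it was 1453 higher and 966 lower regions, with 4 members higher, and without control replicate 2 it was 130 higher and 115 lower, with 0 members. At an unadjusted p under 0.05, 12 members were higher (5.41%) and 2 lower (0.901%), against 2.55% and 1.81% of the eligible regions tested and 4.89% and 5.63% of all regions tested. The differences between these shares were not tested. Members also had more H3K4me1 than the other eligible regions (median 14.3 against 8.22 CPM over 6 libraries), so the shares are not like for like. By the overlap of groups, H3K4me1 was higher at 25 of all 223 members (11.2%) and lower at 6 (2.69%), close to the 10% and 3.75% of all eligible regions.

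The level of H3K4me1 was higher at members than at the other eligible regions, in both groups of libraries. Averaged over members, it was 23.6, 23.9 and 24.98 CPM in knockdown libraries, against 23.3, 22.5 and 24.3 CPM in control libraries, and the groups overlapped. Over the other eligible regions it was 15.7, 15.8 and 15.6 CPM in knockdown libraries, against 14.9, 15.3 and 14.6 CPM in control libraries, and there the groups did not overlap. Per kb, the median in control cells was 4.42 CPM at members and 3.04 CPM at the other eligible regions, and 16.1% of members were in the top 20% of all regions for control H3K4me1 density, against 6.94% of eligible regions. The median log2 fold (0.1 CPM added) was 0.11 at members and 0.11 at the other eligible regions. Members thus had more H3K4me1 than other eligible regions in both groups of libraries, with nearly the same median fold. Regions lower in both marks also had more than the other eligible regions. Median control H3K4me1 was 14.5 CPM at members, 10.7 CPM at regions lower in both marks and 7.82 CPM at eligible non-members.

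**Figure D5:**
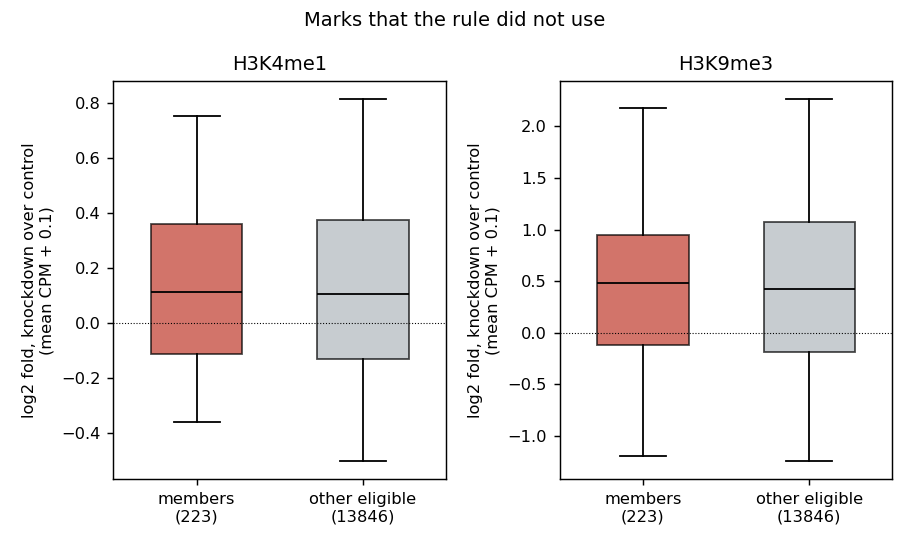
Log2 fold of H3K4me1 (left) and H3K9me3 (right), knockdown over control mean CPM with 0.1 CPM added, at 223 members and 13846 other eligible regions. Boxes span the quartiles, the black line is the median and whiskers reach the 5th and 95th percentiles; the medians are 0.11 and 0.11 for H3K4me1 and 0.49 and 0.42 for H3K9me3.

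Of the members, the smallest p for higher H3K4me1 was at chr1:17264939-17266462, with 9.44, 10.2 and 11.95 CPM in knockdown libraries, against 4.31, 1.83 and 5.51 CPM in control libraries (log2 fold change 1.41, SE 0.44, adjusted p = 0.265, edgeR). At chr9:2620554-2626447 it was 43.9, 37.0 and 37.9 CPM in knockdown libraries, against 18.3, 23.3 and 28.8 CPM in control libraries (log2 fold change 0.72, adjusted p = 0.279, edgeR). Next came chr20:62127686-62132261, with a log2 fold change of 0.69 (adjusted p = 0.333, edgeR). All 3 had groups that did not overlap, and all 3 passed the test when control replicate 3 of H3K4me1 was left out (adjusted p = 0.0404, 0.0343 and 0.0329, edgeR). None of the 3 passed when any other single library was left out (adjusted p = 0.162 to 0.762, edgeR), and without control replicate 2 the log2 fold change at chr20:62127686-62132261 was 0.41. Lower H3K4me1 was seen at chr5:124073661-124076261, with 23.7, 15.4 and 20.7 CPM in knockdown libraries, against 29.3, 36.3 and 39.0 CPM in control libraries (log2 fold change -0.85, SE 0.24, adjusted p = 0.239, edgeR). There the groups did not overlap in any of H3K4me3, H3K27ac and H3K4me1, and H3K4me1 went the other way from both. The log2 fold change was -0.37 at chr16:88832644-88838190 (adjusted p = 0.405, edgeR) and -0.51 at chr22:40927988-40931487 (adjusted p = 0.499, edgeR).

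H3K9me3 was scarce at members. Its average was 4.11, 4.27 and 3.30 CPM in knockdown libraries, against 2.64, 3.81 and 2.302 CPM in control libraries, and the groups overlapped. Only 62 of the 223 members had enough counts for the edgeR test, and 0 of them passed an adjusted p of 0.05. Over all 30565 regions tested, 2 were higher (0.00654%) and 1 lower (0.00327%), and 2555 had an unadjusted p under 0.05. DESeq2 called 3 higher and 46 lower regions, but its own filter left 29036 regions, with all 62 of these members, without an adjusted p. At an unadjusted p under 0.05, edgeR had 4 of these 62 members higher (6.45%) and 2 lower (3.23%), against 10.7% and 0.902% of the eligible regions tested and 3.86% and 4.5% of all regions tested. Over all 223 members, the groups did not overlap with higher values at 24 (10.8%) and with lower values at 6 (2.69%), against 10.9% and 1.95% of all eligible regions. The median log2 fold (0.1 CPM added) was 0.49 at members and 0.42 at the other eligible regions. These differences in share were not tested.

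The smallest p for H3K9me3 among members was at chr20:55964865-55978365, the widest member, where it was 18.1, 24.3 and 15.6 CPM in knockdown libraries, against 4.44, 6.06 and 6.91 CPM in control libraries (log2 fold change 1.80, SE 0.42, adjusted p = 0.134, edgeR). At chr2:96923411-96933228 it was 16.2, 13.6 and 7.64 CPM in knockdown libraries, against 3.55, 3.73 and 0.728 CPM in control libraries (log2 fold change 2.32, adjusted p = 0.191, edgeR). At chr20:6030968-6037501 the log2 fold change was 1.72 (adjusted p = 0.416, edgeR). At these 3 regions the groups did not overlap in H3K9me3 either, with the higher values in knockdown cells, although none passed the test. On the lower side, the smallest p were at chr8:84822976-84828503 (log2 fold change -1.41, adjusted p = 0.538), chr11:13983637-13987587 (-1.38, adjusted p = 0.548) and chr19:7980530-7983265 (-1.38, adjusted p = 0.669), none of which passed edgeR's test. At chr11:13983637-13987587, H3K9me3 was 2.85, 2.79 and 6.94 CPM in knockdown libraries, against 8.88, 26.1 and 1.09 CPM in control libraries. The groups overlapped there and at the chromosome 8 region, and both values rested on control replicate 2: without it the log2 fold change was -0.10 at chr11:13983637-13987587 and -0.72 at chr8:84822976-84828503. At chr19:7980530-7983265, H3K9me3 was 5.71, 0 and 1.39 CPM in knockdown libraries, against 5.33, 6.998 and 6.55 CPM in control libraries, and the groups overlapped. Its log2 fold change was -2.98 without knockdown replicate 1 and -0.80 without knockdown replicate 2.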

How the data were processed

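The authors deposited 24 files of read counts per region, 1 for each library, over the same 153244 regions. Per the submitters' processing notes, the build was hg19 and the tools included deepTools 3.5.4, bedtools 2.30.0 and Bowtie2 2.4.5. How regions were drawn, and how duplicates and reads with several matches were treated, is not given in the sources here. Between 51.9% and 65.9% of the counts in a library were even numbers, so both mates of a pair may have been counted, in which case Poisson intervals are too narrow. They cover counting error only.

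CPM was computed as the count scaled to a library total of 1000000, with no further scaling. Start positions were taken as counted from 0 and printed as counted from 1. The members, the thresholds and the lists were chosen with earlier results of these data known. H3K4me1 and H3K9me3 counts were tested with edgeR 4.0.16 in R 4.3.3 (filterByExpr, TMM scaling, robust quasi-likelihood test, 6 libraries of the mark, Benjamini-Hochberg adjustment over all tested regions). Its code was checked on simulated data. DESeq2 1.42.0 was an alternative. Other steps used Python 3.11.15, pandas 2.3.3, NumPy 2.4.6 and SciPy 1.17.1.

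Named regions were the 10 members with the widest separation, the 5 with the highest mean H3K4me3, for H3K4me1 and for H3K9me3 the 3 of smallest p on either side, those at each threshold and the largest groups within 100 kb. The 3 members outside the top 20% for H3K4me3 density and the chromosome 8 pair were chosen after their values were seen. Chi-square per degree of freedom between libraries of a group was 3.09 to 10.5, so all were kept as separate libraries. P-values therefore reflect how much libraries of a group varied, which may be technical. Planned comparisons of gene lists and cell type markers were not made, since an hg19 annotation was not used here.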

Additional observations from a re-analysis of the deposited data

How the results depend on the processing

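Without a minimum CPM, 758 of 153244 regions (0.495%) met the rule, and 604 were lower in both marks. If labels and marks were unrelated 383 would meet it, and 282 by the product of the shares. The 383 assumes no ties between libraries, which can occur where counts are few. With a gap of at least 1.2 times, 37 met the rule and 16 were lower. TMM and RLE scaling gave 239 and 225 regions, of which 214 and 210 were among the 223. Doubled minimums gave 179. Leaving out 1 library of H3K4me3 or H3K27ac at a time gave 258 to 378 regions, by construction more. In these runs 69.9 to 70.5 regions would meet the rule if labels and marks were unrelated, and 166 to 309 were lower in both marks. Leaving out control replicate 3 of both marks, an alternative chosen after seeing the data, gave 689. The regions lower in both marks numbered 116 under TMM.

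For H3K4me1, DESeq2 called 69 regions higher and 25 lower, library totals alone gave 10 higher and 0 lower, and no filter gave 139 higher and 69 lower. Leaving out 1 library gave 0 to 1453 higher and 0 to 966 lower regions, and 0 to 4 members higher. For H3K9me3, DESeq2 called 46 regions lower and library totals alone 6, and the strict filter left 1 higher. Leaving out 1 library gave 2 to 12 higher and 1 to 10 lower regions, and 0 members. The median log2 fold change of members moved by less than the SD between the 3 knockdown libraries in every alternative run. That SD was 0.061 in H3K4me1 and 0.211 in H3K9me3. It was taken over each knockdown library's median log2 difference from the control mean, and leaves out the spread among control libraries. With 1 library left out the median log2 fold change was 0.03 to 0.08 in H3K4me1 and 0.33 to 0.65 in H3K9me3. The causes were not tested.

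Within each mark, deviations from the group means were correlated between knockdown and control libraries. For libraries of the same replicate number the correlations were between -0.0987 and 0.0641, and not every library correlated best with its own number. Libraries of the same number were not compared across marks, so shared cultures of different marks were not tested. With the replicate number as a block, H3K4me1 had 74 higher and 15 lower regions, H3K9me3 had 3 higher and 4 lower, and 0 members were called in either mark. In H3K9me3, 62 of the 223 members had enough counts to be tested.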
